A study of Equus caballus with 4 samples.

Results

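The actin isoforms and the smooth muscle actin binders transgelin and calponin 1 were examined in differentiating equine satellite cells. The genes are the sarcomeric actins ACTA1 (skeletal muscle alpha-actin) and ACTC1 (cardiac alpha-actin), the smooth muscle actins ACTA2 (aortic alpha-actin) and ACTG2 (enteric gamma-actin), the cytoplasmic actins ACTB and ACTG1, and the binders TAGLN and CNN1. Their probes were taken by exact gene name among the noncontrol spots of the arrays. Of these 8 genes, 6 had a probe under that name. They held 10 of 43603 probes, on 14 spots of each array. No probe carried the name ACTG1 or CNN1.

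The cells were primary satellite cells of *semitendinosus* muscle. Per the study's methods, muscle came from 6 colts that were 6 months old, and cells of the isolation with the best viability and fusion were chosen. All groups were in differentiation medium, and 48 h after the change to it GO-treated cells received 0.125 μM gamma-oryzanol (GO), a mixture of ferulic acid esters from rice bran, for 24 h. Control cells received the DMSO vehicle alone (0.04 μl/ml), which the GO-treated cells also carried. RNA was taken on day 3 of differentiation. Each of 4 arrays held GO-treated cells in Cy5 and control cells in Cy3, so an effect of the dye cannot be told apart from an effect of GO. The labels call the arrays biological replicates, whereas the methods leave it unclear whether they came from different horses or from cultures of 1 isolation, and p-values then measure only the spread between these arrays.

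Actins are a family of near-identical proteins that polymerize into filaments. The cytoplasmic isoforms build the cytoskeleton of every cell, whereas the muscle isoforms form the thin filaments on which myosin pulls. Differentiating myoblasts are known to pass through a stage in which smooth muscle and cardiac isoforms are made before the skeletal isoform prevails, so cultured muscle cells can hold RNA of several isoforms at once. Transgelin and calponin 1 bind filaments in smooth muscle cells, and many of these genes are known targets of serum response factor and its actin-sensing coactivators.

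Because the isoforms resemble one another, the probes themselves are shown first. Positions are on the EquCab1 build as the files give them. No annotation of that build was used here, so exons and untranslated regions were not assigned. The ACTA1 probe lay on chrUn:242448913-242448972. The probe most similar to it among the other 43602, without gaps, carried no gene name but the transcript ENSECAT00000019711, described in the files as cytoplasmic actin 1, and lay at chr11:408537-408596. Over the 48 bases that these probes share, 38 were identical. The 10 that differ are in capitals:
ACTA1: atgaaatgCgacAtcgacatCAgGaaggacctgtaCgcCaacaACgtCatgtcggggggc
ENSECAT00000019711: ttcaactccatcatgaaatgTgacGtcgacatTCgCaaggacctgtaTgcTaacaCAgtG
No probe of the 6 genes had 40 or more bases in common with a probe of another gene. Probes were compared with other probes only, not with the transcripts of the other isoforms. Whether a probe also reads RNA of another isoform was therefore not tested.

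The other probes are given in lower case, since no base in them is singled out. The ACTB probe was on the minus strand of chrUn:136490322-136490381, and the file tied it to 3 Ensembl transcripts. The TAGLN probe spanned 352 bases at chr7:21880887-21881238 with only 60 bases of its own, so its sequence is split on the genome. These are the probes whose ratios lay nearest to 0:
ACTB: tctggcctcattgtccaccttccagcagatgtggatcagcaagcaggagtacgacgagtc
TAGLN: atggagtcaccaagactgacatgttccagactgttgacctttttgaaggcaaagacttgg
For the other isoforms the first 30 bases are shown. The ACTC1 probe was at chr1:150271137-150271196, the ACTA2 probe at chr1:38701660-38701719 and the brightest ACTG2 probe at chr15:25673057-25673116:
ACTC1: catctctcatccatcattgtacagtttgtt
ACTA2: ttttttaataaatctgaactatgtcaccgg
ACTG2: tggggacctccttgagactaccctattacc
ACTG2 had 5 probes, each moved by a single base from the next along 64 bases from 25673053 to 25673116. All 5 shared 56 bases. They read the same stretch of 1 transcript and are not independent measurements.

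Each ratio below is the log2 of the GO over the control signal of an array, as made by Feature Extraction with lowess dye normalization. Tests were run on the 26833 probes whose signal cleared the background in the same channel on all 4 arrays. All 10 probes of the actins and TAGLN cleared it in both channels. To be called changed, a probe needed an adjusted p no higher than 0.05 (limma, Benjamini-Hochberg adjustment over all tested probes) and a fold change of 1.3 or more, which is 0.38 on the log2 scale. By this rule 8.94% of all tested probes changed, 5.61% being lower in GO-treated cells. Of the 10 probes, 6 changed, all lower: that of ACTA1 and the 5 of ACTG2. Counted as 1 value per gene, 2 of the 6 genes changed, beside 8.68% of all genes tested. The 5 overlapping ACTG2 probes stand for 1 gene, so the count of genes is the one to set beside the background.

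The sarcomeric actin ACTA1, the thin filament actin of mature skeletal fibers, was lower in GO-treated cells. Its processed signal in control cells was 51857, 73910, 52624 and 50318 on arrays 1 to 4. In GO-treated cells it was 41091, 44248, 34118 and 27837. Every GO-treated value lay below every control value, although array 1 had a smaller gap than the others. The log2 ratios were -0.34, -0.74, -0.63 and -0.85, with a mean of -0.64 ± 0.22 (SD, n = 4), a 1.56-fold decrease (adjusted p = 0.00824, limma). In bulk RNA, fewer cells that express a gene and less of its RNA per cell cannot be told apart.

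ACTC1, the actin of the heart that immature skeletal muscle also makes, had ratios below 0 on all 4 arrays but did not meet the fold change threshold. Control cells had signals of 147439, 171840, 199227 and 132548. GO-treated cells had 139703, 144767, 139640 and 96070 on the same arrays. Within each array the GO-treated signal was the lower, yet the groups overlapped. The ratios were -0.08, -0.25, -0.51 and -0.46, with a mean of -0.33 ± 0.20 (SD, n = 4), 1.25-fold in size (adjusted p = 0.0460, limma). Array 1 again had the smallest difference. Without it the mean was -0.41 and both thresholds were passed (adjusted p = 0.0324, limma). Without array 2, 3 or 4 neither threshold was passed. The means were then -0.35, -0.26 and -0.28 (adjusted p = 0.116, 0.154 and 0.123, limma).

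Of the smooth muscle actins, ACTG2 was lower in GO-treated cells and ACTA2 did not pass. The brightest ACTG2 probe gave control signals of 92975, 101163, 104820 and 78012. GO-treated cells gave 70080, 73370, 72078 and 56470. The groups did not overlap for this probe or for the other 4. Its log2 ratios of -0.41, -0.46, -0.54 and -0.47 had the least spread between arrays of the 6 genes' brightest probes, with a mean of -0.47 ± 0.05 (SD, n = 4; 1.38-fold, adjusted p = 0.00550, limma). Across the 5 probes the mean ratio ran from -0.49 to -0.44 and the adjusted p from 0.00536 to 0.00573.

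ACTA2, the alpha-actin of vascular smooth muscle and of myofibroblasts, showed no common direction. Control cells had signals of 19938, 21625, 12599 and 11916, and GO-treated cells 21637, 18562, 14897 and 12602. Arrays 1 and 2 were brighter than arrays 3 and 4 in both channels, a gap between arrays that was wider than any gap between channels. The ratios were 0.12, -0.22, 0.24 and 0.08, with a mean of 0.06 ± 0.20 (SD, n = 4; adjusted p = 0.682, limma). The 95% interval of this mean reached 0.31 to either side.

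The cytoplasmic actin ACTB, often used as a reference gene, did not pass either. Its control signals were 106646, 150483, 140453 and 105011. Its GO-treated signals were 121697, 139617, 126871 and 96040. Array 1 stood apart, with a ratio of 0.19 against -0.11, -0.15 and -0.13 on the other arrays, and the mean was -0.05 ± 0.16 (SD, n = 4; adjusted p = 0.687, limma). Another reference gene, GAPDH, had a mean ratio of -0.04 ± 0.13 (SD, n = 4; adjusted p = 0.738, limma) at its brightest probe. Outside the name rule, the 2 probes described as cytoplasmic actin 1, both on chromosome 11, had mean ratios of 0.27 ± 0.11 for ENSECAT00000019685 (adjusted p = 0.0332, limma; under the fold change threshold) and 0.11 ± 0.15 for ENSECAT00000019711 (SD, n = 4; adjusted p = 0.321, limma). The latter is the probe set beside that of ACTA1 above, and its ratio was above that of ACTA1 on all 4 arrays. The named ACTB probe lies on chrUn, and which cytoplasmic actin gene these 2 probes read was not worked out.

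TAGLN, a calponin-family protein that bundles actin filaments, was measured on 5 spots of each array. Control signals were 34026, 40389, 31339 and 26816, and GO-treated signals 33150, 37635, 35810 and 29323. The log2 ratios were -0.04, -0.10, 0.19 and 0.13, and their mean was 0.05 ± 0.14 (SD, n = 4; adjusted p = 0.684, limma). Spots within an array differed far less than arrays did, with an SD between spots of 0.020 to 0.039 (4 spots on array 4, after 1 outlier was left out).

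No probe bore the name CNN1, but the probe of ENSECAT00000015253, chosen here by its description as calponin 1 after its values were known, was higher in GO-treated cells. It lay on the minus strand of chrUn:144238174-144240261, a span of 2088 bases, and reads:
ENSECAT00000015253: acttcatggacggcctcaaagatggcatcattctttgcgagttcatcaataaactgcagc
Control signals were 510, 905, 546 and 483, and GO-treated signals 783, 1044, 857 and 687. The GO-treated signal was the higher on each array, but the groups overlapped because of the bright control channel of array 2. The log2 ratios were 0.62, 0.21, 0.65 and 0.51, with a mean of 0.50 ± 0.20 (SD, n = 4; 1.41-fold, adjusted p = 0.0148, limma). It was much dimmer than the actin probes: 41.4% of tested probes were brighter.

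**Figure D1:**
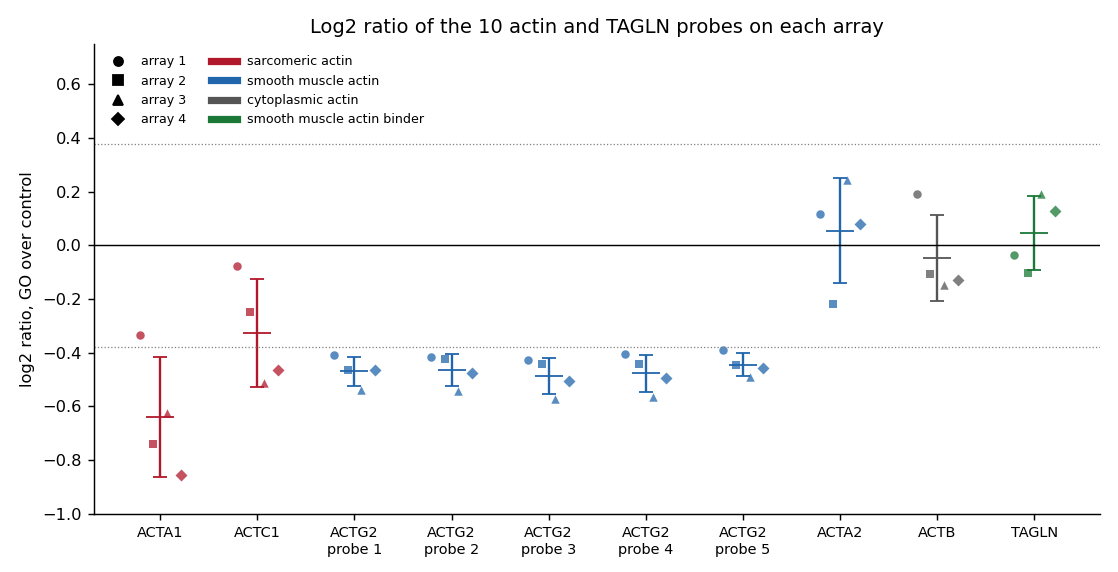
Log2 ratio of GO over control (y axis) for each probe of the 5 actins and TAGLN (x axis); symbols are arrays, the short line and bar are the mean ± SD of 4 arrays, and dotted lines mark a 1.3-fold change. The ACTA1 and ACTG2 probes lie wholly below 0, ACTC1 spreads from -0.51 to -0.08, and ACTA2, ACTB and TAGLN lie on both sides of 0.

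**Figure D2:**
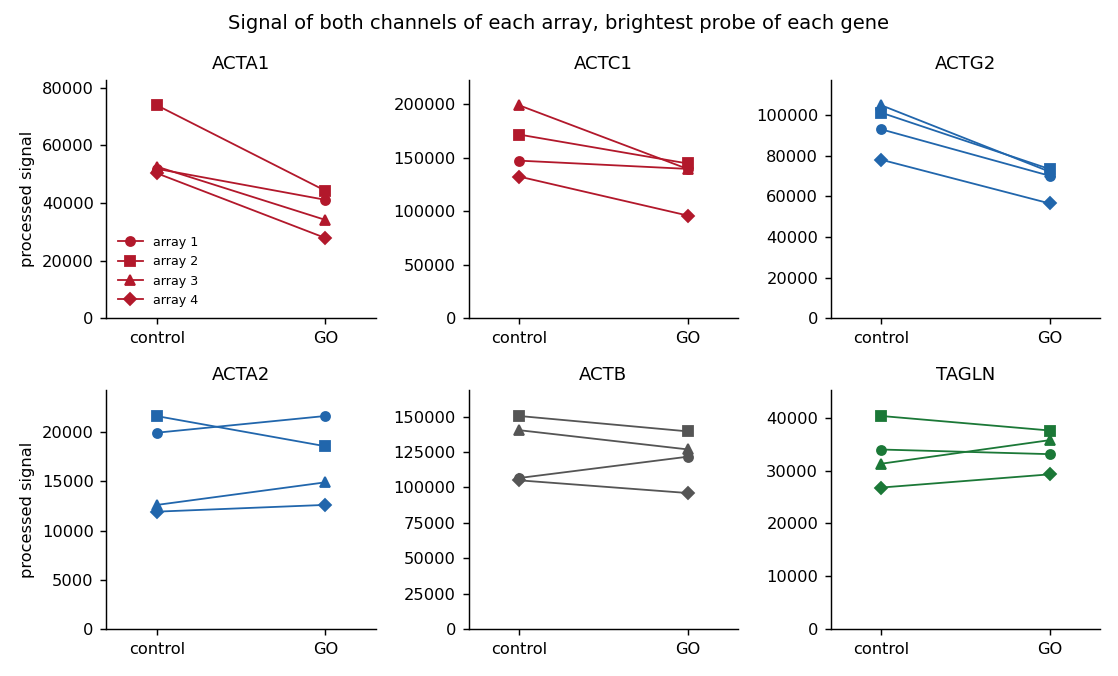
Processed signal (y axis, from 0) in the control and the GO channel (x axis) for the brightest probe of each gene; a line joins both channels of an array. All 4 lines fall for ACTA1, ACTC1 and ACTG2, and they run in both directions for ACTA2, ACTB and TAGLN.

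Set against each other within an array, with lowess, the actins of a class differed in their ratios. Those of the sarcomeric ACTA1 and ACTC1 were nevertheless both below 0 on all 4 arrays. The differences below are given as values without a test. The ratio of ACTA1 was below that of ACTB on every array, by 0.53, 0.63, 0.48 and 0.73 (mean of ACTA1 minus ACTB -0.59 ± 0.11; SD, n = 4). That of ACTG2 was also below ACTB on every array (mean -0.42 ± 0.12). The sarcomeric ACTA1 and the smooth muscle ACTG2 were nearer to each other, with a mean of ACTG2 minus ACTA1 of 0.17 ± 0.20 and a negative value on 1 array, but this changed with the normalization: the mean was 0.38 ± 0.19 without lowess and 0.30 ± 0.19 with normexp and loess, positive on all 4 arrays in both. Within the smooth muscle class ACTG2 was below ACTA2 on all 4 arrays, with a mean difference of -0.52 ± 0.22. Within the sarcomeric class ACTA1 was below ACTC1 on all 4 arrays, with a mean of -0.31 ± 0.16. The smooth muscle pair of ACTA2 and TAGLN differed by 0.01 ± 0.12, and TAGLN was above ACTB by 0.09 ± 0.26, in both cases less than the spread between arrays. TAGLN minus ACTB was -0.38 ± 0.22 without lowess and -0.20 ± 0.22 with normexp and loess, below 0 on all 4 arrays in both. ACTA2 minus TAGLN was -0.20 ± 0.14 without lowess, below 0 on all 4 arrays. ACTG2 was brighter than ACTA1, ACTB than TAGLN, and TAGLN than ACTA2. Without lowess and with normexp and loess, the differences of these pairs cannot be told apart from the trend of ratios with brightness given below.

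All 6 genes are read by bright probes, and here the dye normalization weighs most. Only 0.0522% of tested probes were brighter than that of ACTC1, 0.272% than that of ACTB, 1.25% than the ACTG2 probe, 2.17% than that of ACTA1, 2.81% than that of TAGLN and 5.16% than that of ACTA2. ACTB and ACTC1 were among the 200 brightest. Before lowess, the red signal of bright probes exceeded the green as a whole. With background-subtracted signals centred on the median of each array, the 200 brightest probes had a median log2 ratio of 1.04 and 199 of them changed, all higher in GO-treated cells. With lowess their median was 0.15, and 11 were higher and 9 lower. From these background-subtracted ratios to the deposited ones, which also carry detrending and a linear dye correction beside lowess, these 200 probes moved down by a median of 0.79, 0.78, 1.07 and 1.05 on arrays 1 to 4. The median over all tested probes moved by no more than 0.03. That small shift was largely fixed in advance, since the former ratios were centred on each array's median and the deposited ones lie around 0.

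Without lowess both calls were lost and others appeared. The ratio of ACTA1 was then 0.09, -0.19, -0.05 and -0.16 (mean -0.08 ± 0.12; SD, n = 4; adjusted p = 0.492, limma). The 4 ratios of ACTG2 turned positive, with a mean of 0.30 (adjusted p = 0.0282, limma) that stayed under the fold change threshold. Instead ACTB (0.88), ACTC1 (0.69) and TAGLN (0.50) passed both thresholds as higher, and ACTA2 was at 0.29 (adjusted p = 0.0545, limma). GAPDH stood at 0.89, close to ACTB. The dimmer calponin 1 probe had ratios of 0.24 to 0.69 on the 4 arrays without lowess.

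Further normalizations were tried. When each probe was set against the median of the 500 nearest to it in brightness on that array, ACTA1 stood at -0.57 and the brightest ACTG2 probe at -0.49 and both changed, ACTC1 at -0.18, and ACTB at 0.01. The 5 overlapping ACTG2 probes then ran from -0.49 to -0.34, and 3 of them passed both thresholds. With normexp background correction and loess, ACTA1 stood at -0.50 and changed, whereas ACTG2 at -0.20 did not reach the fold change threshold, ACTC1 stood at 0.13 and ACTB at 0.32. The order within an array was steadier than the level. ACTA1 was below ACTB, below ACTA2 and below ACTC1 on all 4 arrays under all 4 normalizations. So were ACTG2 and ACTC1 below ACTB. For ACTC1 and ACTB, both at the bright end, the setting of the 500 nearest subtracted the same median from each. Their difference there therefore equals the one without lowess (-0.18 ± 0.09) and is not a separate check. Without lowess and with normexp and loess, however, the 200 brightest probes kept a median ratio of 1.04 and 0.50. ACTB and ACTC1 were brighter than ACTA1 and ACTG2. In those settings the order of ACTA1 against both, and of ACTG2 against ACTB, cannot be told apart from this trend with brightness. ACTA2 was dimmer than ACTA1, and ACTC1 was brighter than ACTB. ACTG2 was below ACTA2 on all 4 arrays with 3 of the normalizations but not without lowess, where the mean difference was 0.01 ± 0.13, and with normexp and loess it was -0.21 ± 0.15. ACTC1 was above ACTA2 by 0.40 ± 0.20 without lowess and below it by a mean of -0.38 ± 0.33 with lowess. ACTG2 and ACTC1 were brighter than ACTA2, so without lowess and with normexp and loess their standing against it also carries the trend with brightness.

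**Figure D3:**
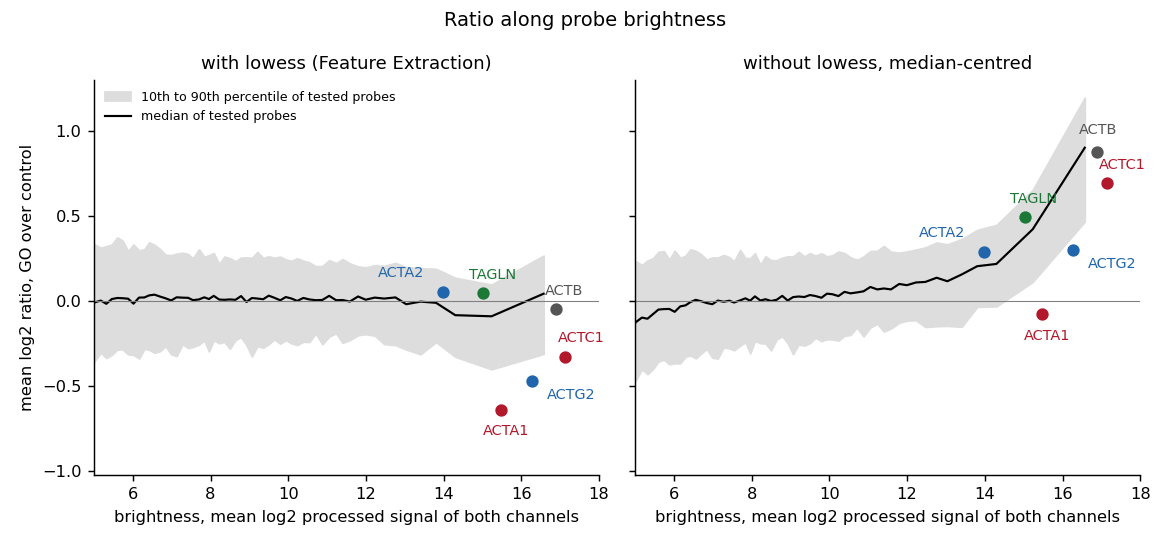
Mean log2 ratio over 4 arrays (y axis) along probe brightness, the mean log2 processed signal of both channels (x axis), with lowess on the left and without it on the right; the line and grey band are the median and the 10th to 90th percentile of tested probes in bins of equal size, and points are the brightest probe of each gene. Without lowess the whole bright end rises, and ACTB goes from -0.05 to 0.88 with it, while ACTA1 stays under the band in both panels.

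**Figure D4:**
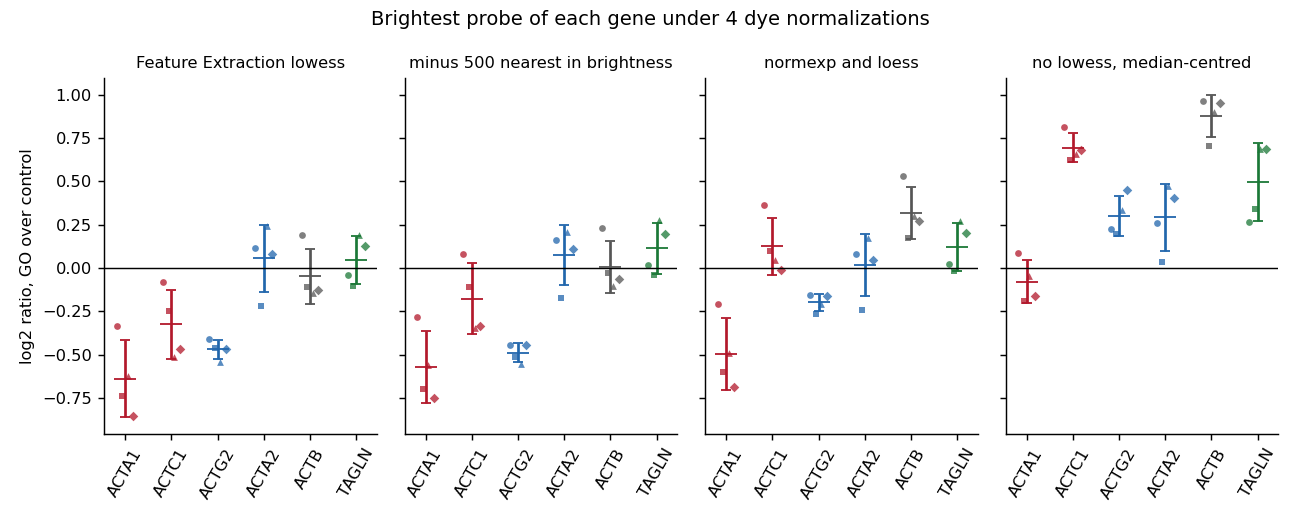
Log2 ratio of GO over control (y axis) of the brightest probe of each gene (x axis) under 4 dye normalizations; symbols are arrays 1 to 4 as a circle, square, triangle and diamond, and bars are the mean ± SD. The mean of ACTA1 goes from -0.64 to -0.08 and that of ACTG2 from -0.47 to 0.30, and ACTA1 is the lowest of the 6 genes in each panel.

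The other genes of actin dynamics were counted from lists of 105 genes, of which 86 had a probe and 79 were tested. In limma, at the brightest probe of each gene, 0 of them were higher and 8 were lower, 10.1% beside 8.68% of all genes tested. Among their dimmer probes, 1 of FMNL2 (0.59) and 1 of DIAPH2 (0.39) passed both thresholds as higher. The brightest probes of these genes stood at 0.04 and 0.36. Over all genes the share that was higher was 3.31% and the share that was lower 5.37%. At an unadjusted p under 0.05, 11 of the 79 were higher and 21 lower, beside 1635 higher and 1661 lower of all 9494 genes. A plain one-sample test counted 0 higher and 2 lower of the 79, beside 7 and 30 of all genes. The median ratio of the 79 genes was -0.01, and that of all genes 0.00.

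Among the proteins that bind monomers or sever filaments, CAP2, a cyclase-associated protein of striated muscle that helps to recycle monomers, was lower in GO-treated cells. Its log2 ratios were -0.55, -0.70, -0.83 and -0.82 (mean -0.72 ± 0.13; SD, n = 4; 1.65-fold, adjusted p = 0.00295, limma). The other 14 tested genes of that list did not pass, among them the muscle cofilin CFL2 (-0.31 ± 0.24) and its nonmuscle counterpart CFL1 (0.32 ± 0.24). Of the 23 nucleation genes tested, 3 were lower. The leiomodins LMOD2 and LMOD3, which start filaments in striated muscle, had ratios of -0.51 ± 0.21 and -0.48 ± 0.05 (adjusted p = 0.0152 and 0.00528, limma), and FHOD3, a formin of the sarcomere, had -0.53 ± 0.16 (adjusted p = 0.00828, limma). The tested subunits of the Arp2/3 complex, which branches filaments in every cell, had ratios between -0.17 (ACTR2) and 0.15 (ARPC5).

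Of the 18 crosslinking and anchoring genes tested, SVIL (supervillin, which ties filaments to the membrane) stood at -0.46 ± 0.11 and ANLN (anillin, of the cleavage furrow) at -0.40 ± 0.21, both lower (adjusted p = 0.00810 and 0.0268, limma). Of the 10 capping genes 0 passed in limma, with 1 higher and 2 lower at an unadjusted p under 0.05 and 0 by the plain test. Of 5 relatives of calponin and transgelin, TAGLN3 was lower at -0.40 ± 0.17 (adjusted p = 0.0197, limma), and it turned to 0.14 without lowess. CNN3 (-0.01 ± 0.14) and TAGLN2 (0.10 ± 0.14) did not pass. Of 8 genes of the serum response factor pathway, ABRA, a muscle protein that activates it through actin, was lower with ratios of -0.76, -0.68, -0.63 and -0.60 (mean -0.66 ± 0.07; SD, n = 4; adjusted p = 0.00261, limma). The ratios of CAP2, LMOD2, LMOD3, FHOD3, SVIL, ANLN and ABRA were below 0 under all 4 normalizations.

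**Figure D5:**
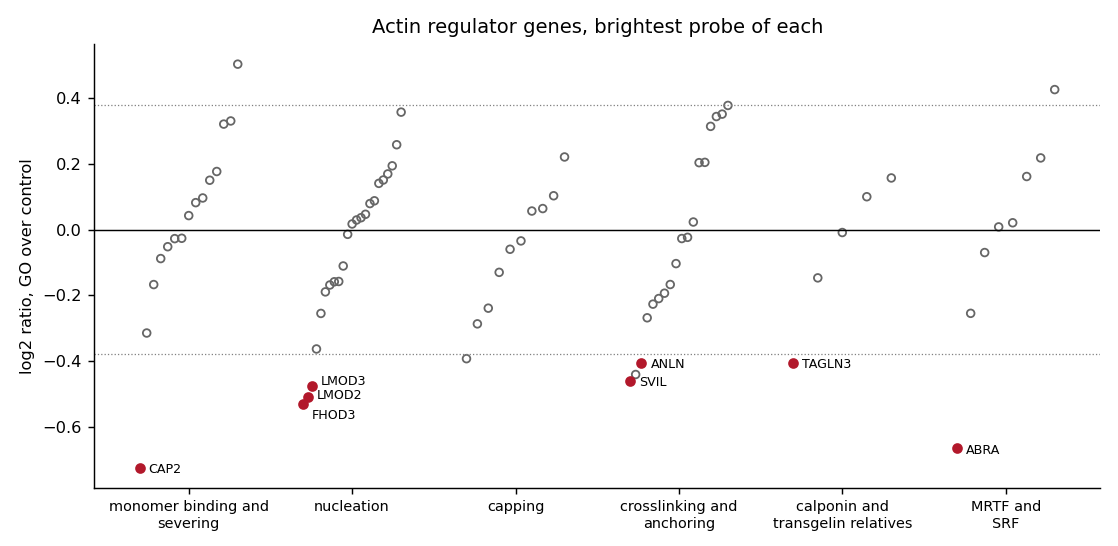
Log2 ratio of GO over control (y axis), mean of 4 arrays, for the tested genes of each list of actin regulators (x axis, genes sorted by ratio within a list); filled points passed both thresholds and dotted lines mark a 1.3-fold change. All 8 filled points are below 0, from CAP2 at -0.72 to ANLN and TAGLN3 at -0.40.

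Markers of cell types were measured beside these genes. Of 13 skeletal myogenic markers 7 had a probe by name, all well above background on the 4 arrays in control cells. DES, MYF5, MYH3 and MYOG were lower in GO-treated cells (-0.61 ± 0.24, -0.93 ± 0.04, -0.83 ± 0.19 and -0.40 ± 0.11). Without lowess DES (-0.33), MYH3 (-0.15) and MYOG (-0.36) no longer reached the fold change threshold, while MYF5 stood at -0.94. The summed signal of the 7 markers was 110176 to 147533 in control cells and 67434 to 89885 in GO-treated cells. These 4 markers moved in the same direction as ACTA1 and ACTG2, and their part in those results was not tested. Of 10 smooth muscle markers 8 had a probe and 7 were tested. In limma 0 passed (0 higher and 1 lower at an unadjusted p under 0.05, 0 by the plain test). The lower one was SYNPO2 at -0.27 ± 0.17, and HEYL stood at -0.07 ± 0.10. The rest of the 7 had means above 0. Among these, MYH11, smooth muscle myosin, stood at 0.21 ± 0.36 and MYOCD, the smooth muscle coactivator myocardin, at 0.43 ± 0.62. The summed signal of the 8 smooth muscle markers with a probe was 1270 to 2276 in control and 1359 to 2079 in GO-treated cells. Of 9 fibroblast markers with a probe 7 were tested and PDGFRA was higher (0.87 ± 0.48). The dimmer of 2 DCN probes also passed as higher (0.42). Of 3 pericyte markers tested 0 passed at the brightest probe, but 2 of 4 MCAM probes passed as lower. The share called was 57.1% of the myogenic, 0% of the smooth muscle and 14.3% of the fibroblast markers tested, beside 8.68% of all genes tested. In a list of 7 genes, 0 or 1 called is near that share. The 6 endothelial markers with a probe were not well above background on any array.

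Likeness was described by Pearson's r over the 8 channel values of a probe (log2 processed signal, 4 arrays with 2 channels each, which share arrays and dyes), with no test. The genes most like ACTG2 were MYL11, a myosin light chain of fast skeletal muscle (r = 0.992, log2 ratio -0.54), MYL4, a myosin light chain of embryonic and atrial muscle (0.985, -0.47), and MFAP1 (0.985, -0.19). For ACTC1 they were ALDOA, the muscle aldolase of glycolysis (0.992, -0.30), ATP6 (0.978, -0.34) and PPP1R14B (0.975, -0.24). For ACTA1 they were QPRT (0.996, -0.44), KIAA0947 (0.987, -0.34) and WBSCR22 (0.986, -0.21). ACTA2 was nearest to IGFBP-5 (0.994), PCNXL4 (0.992) and LYNX1 (0.984), ACTB to WDR33 (0.993), RTN4R (0.993) and TOP3A (0.988), and TAGLN to RAB10 (0.971), ZCCHC24 (0.966) and RNF25 (0.964). Among the 6 genes themselves, ACTG2 was most like ACTC1 (0.914) and ACTA1 (0.886). TAGLN was nearly as much like the cytoplasmic ACTB (0.740) as like ACTA2 (0.768). ACTG2 and the other smooth muscle actin ACTA2 had an r of 0.227.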

How the data were processed

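Labeled cRNA of GO-treated (Cy5) and control (Cy3) cells was hybridized to 4 horse arrays on 1 slide. The authors used Feature Extraction (10.10.1.1 per the file headers). The deposited log10 ratios and processed intensity values are those made by subtracting background, detrending, and a linear and then a lowess correction for the dyes. The deposited intensity columns also hold background-subtracted, mean and local background signals. The authors' table of the whole series was not used here.

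Ratios were converted to log2. Control spots (1417 of 45220 per array) and outlier spots were left out, and spots of 1 probe were averaged. Between 63.5 and 68.9% of probes were well above background in the control and between 57.4 and 67.0% in the GO channel, and 0 spots were saturated. The 26833 probes kept were tested against 0 with limma (version 3.58.1, two-sided) in R (version 4.3.3), with an intercept alone and Benjamini-Hochberg adjustment. The methods name the thresholds but not the test. A gene was its brightest probe by mean log2 signal over both channels. Symbols were those of the files (24934 probes), or came by gene number (1684) or accession (447) from the RefSeq table of the TB-T2T assembly. The script was tested on simulated data. The number of arrays limits the precision.

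The genes, lists and tests were chosen with earlier results of these data known. Named were all 8 genes with every probe, the listed regulators past both thresholds, GAPDH and the 3 genes most like each member. Other list members and the probes outside the name rule were picked after their values were seen. Alternatives were no lowess, the 500 probes nearest in brightness, normexp (offset 50) with loess, median centring, other filters, a plain one-sample test, channels as separate samples, each array left out, and the median over a gene's probes.

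The array pairs its channels. The channels of 1 array deviated together from their group means (r = 0.48 to 0.86 over 26833 probes), those of different arrays less so (-0.54 to 0.24).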

Additional observations from a re-analysis of the deposited data

Results flagged for a closer look

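The log2 ratio of ACTB on array 1, 0.19, stood apart from those on the other 3 arrays, -0.15 to -0.11: the gap made up 0.886 of the range of the 4 values. Of the 10 probes of the actins and TAGLN and the 8 of the regulators that changed, it was the only one so marked, and chance marks about 1 in 20 such groups. Without that array the mean ratio of ACTB was -0.13 (adjusted p = 0.165, limma).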

How the results depend on the processing

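Without lowess 3 probes of the 6 genes passed both thresholds in place of 6, and these were those of ACTB, ACTC1 and TAGLN, so that 3 genes were counted but neither ACTA1 nor ACTG2 among them. The ratios of ACTB (0.88), ACTC1 (0.69) and ACTG2 (0.30) had turned, and 14 regulators passed, 6 of them higher, beside 3390 of all 26833 probes in place of 2399. With normexp and loess 1 probe and 1 gene passed (ACTA1), beside 1297 of all probes, and ACTB (0.32) and ACTC1 (0.13) turned. Against the 500 nearest probes ACTB turned to 0.0074. With no filter on dim probes 1 gene (ACTG2) and 5 regulators passed, beside 908 of all 43603 probes. By the plain one-sample test 2 probes, 1 gene (ACTG2) and 2 regulators passed, beside 147 of all probes. With no replicate block, that is with the channels of an array treated as unpaired, 0 probes, 0 genes and 3 regulators passed, beside 370 of all probes. The cause of these differences was not tested.

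Leaving out each array in turn gave 6 to 7 probes, 2 to 3 genes and 6 to 11 regulators. ACTC1 joined without array 1. The ratios of ACTA2 (-0.0072 to 0.15) and TAGLN (-0.0035 to 0.095), neither of which passed, turned without array 3. ACTA1 (-0.74 to -0.57) and ACTG2 (-0.49 to -0.45) passed each time. A filter on both channels and the median over the probes of a gene changed no call of the 6 genes. Centring each array on its median left the values as they were and tests nothing.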
